A study of Mus musculus with 24 samples.

Results

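Krüppel-like factors are transcription factors that bind GC-rich and CACCC-type boxes through a C-terminal array of C2H2 zinc fingers. The 6 genes described here are Klf2, Klf3, Klf4, Klf6, Klf7 and Klf13, a set named by symbol, with earlier results of these data known. Each gene was taken with its RefSeq span and 50 kb on either side, and every deposited peak overlapping that window was counted. These are 6 of 21883 protein-coding gene windows treated in the same way, and another 20 windows hold the other Klf and Sp genes.

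The series profiled lineage-negative bone marrow progenitors (HSPCs) of C57BL/6 mice that carry or lack UTX, the product of Kdm6a, by ChIP-seq and ATAC-seq. UTX is a histone demethylase that also belongs to the complexes that place H3K4me1, a mark of enhancers. H3K4me1 ChIP-seq compared 2 UTX KO with 2 UTX WT libraries, and ChIP-seq of PU.1, the ETS factor of myeloid and lymphoid progenitors, compared 3 UTX KO with 3 UTX WT libraries. ATAC-seq, which maps open chromatin, was done on cells carrying Cas9. One set (set B in the labels) holds 2 libraries each of UTX KO cells with a Smarca4 guide, UTX KO cells with an empty vector, UTX WT cells with the Smarca4 guide and UTX WT cells with the empty vector. Smarca4 encodes BRG1, an ATPase of the BAF remodelling complexes. A second set (set A) holds 2 libraries each of UTX WT cells with a Chd4 guide and UTX WT cells with an empty vector. Chd4 encodes the ATPase of the NuRD complex. Each target was hit with a single guide, numbered 2 for Smarca4 and 1 for Chd4. For set A the labels describe 7 days in semi-solid medium, 5 days in liquid culture and analysis 6 days after transduction, in a text that speaks of Brg1 editing in both genotypes, and no such text stands with set B. How the Utx allele was deleted, the age of the mice and whether replicates came from separate animals are not given in the sources used here, so p-values measure the spread between these samples, which may be technical. The peak lists cannot show how far either guide reduced its target.

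Members of this family act in several blood lineages. Klf2 keeps T cells quiescent and acts in endothelium. Klf3 is a repressor that recruits CtBP and is active in erythroid cells. Klf4 promotes monocyte differentiation and is also a reprogramming factor. Klf6 acts in macrophages, Klf7 is known from neurons and has also been studied in haematopoietic progenitors, and Klf13 was described as an activator of a chemokine gene in T cells.

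Every member had a PU.1 peak within 250 bp of its annotated start in all 6 PU.1 libraries and an ATAC peak there in all 12 ATAC libraries. The promoters are therefore shown first, as the 250 bases before each start in RefSeq (GRCm38.p6), read 5′ to 3′ on the gene's strand. They lie at chr8:72318812-72319061 (+) for Klf2, chr5:64803271-64803520 (+) for Klf3, chr4:55532476-55532725 (-) for Klf4, chr13:5861239-5861488 (+) for Klf6, chr1:64121390-64121639 (-) for Klf7 and chr7:63938916-63939165 (-) for Klf13. The start used for Klf7 lies inside the gene's RefSeq span. Capitals mark the ETS core GGAA and the Krüppel-like box CACCC, on either strand, so that they also appear as TTCC and GGGTG.
Klf2 promoter: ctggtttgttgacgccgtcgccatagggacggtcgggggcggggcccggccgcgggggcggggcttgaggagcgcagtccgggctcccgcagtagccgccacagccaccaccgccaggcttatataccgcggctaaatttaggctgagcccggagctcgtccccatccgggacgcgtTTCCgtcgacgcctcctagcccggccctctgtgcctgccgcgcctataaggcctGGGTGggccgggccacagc
Klf3 promoter: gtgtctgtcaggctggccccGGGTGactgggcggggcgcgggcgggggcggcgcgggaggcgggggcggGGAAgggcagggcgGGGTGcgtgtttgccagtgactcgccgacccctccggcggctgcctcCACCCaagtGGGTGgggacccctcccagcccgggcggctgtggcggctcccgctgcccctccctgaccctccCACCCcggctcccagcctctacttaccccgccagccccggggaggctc
Klf4 promoter: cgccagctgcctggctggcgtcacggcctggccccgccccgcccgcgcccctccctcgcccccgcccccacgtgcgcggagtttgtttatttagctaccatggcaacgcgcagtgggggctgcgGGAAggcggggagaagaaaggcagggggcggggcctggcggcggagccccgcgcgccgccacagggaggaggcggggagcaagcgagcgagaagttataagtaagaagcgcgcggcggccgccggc
Klf6 promoter: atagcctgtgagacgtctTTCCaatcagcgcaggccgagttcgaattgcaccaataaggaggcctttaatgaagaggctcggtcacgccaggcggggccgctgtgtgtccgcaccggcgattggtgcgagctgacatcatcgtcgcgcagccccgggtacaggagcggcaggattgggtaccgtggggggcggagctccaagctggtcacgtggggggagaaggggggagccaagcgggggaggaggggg
Klf7 promoter: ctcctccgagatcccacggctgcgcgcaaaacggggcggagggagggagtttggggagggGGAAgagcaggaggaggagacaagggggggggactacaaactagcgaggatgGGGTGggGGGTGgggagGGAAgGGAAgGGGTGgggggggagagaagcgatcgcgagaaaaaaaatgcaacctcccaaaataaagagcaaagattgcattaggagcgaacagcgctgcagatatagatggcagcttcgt
Klf13 promoter: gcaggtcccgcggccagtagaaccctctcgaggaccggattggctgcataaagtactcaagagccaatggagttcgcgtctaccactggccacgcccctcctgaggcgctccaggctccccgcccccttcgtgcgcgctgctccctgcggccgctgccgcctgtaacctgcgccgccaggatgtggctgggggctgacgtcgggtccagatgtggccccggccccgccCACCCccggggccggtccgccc

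All 6 promoters were richer in G and C than the median promoter, from 59.2% for Klf7 to 78.4% for Klf3, against 52.4% over 32851 RefSeq promoters. CACCC was found 5 times at Klf3, 3 times at Klf7, once each at Klf2 and Klf13 and at neither Klf4 nor Klf6, and 52.0% of all promoters of this length hold it. The longer box GGGTGG, which contains GGGTG, occurred 3 times at both Klf3 and Klf7 and once at Klf2 and Klf13, with 28.1% of promoters holding it. GGAA occurred 3 times at Klf7, once at Klf2, Klf3, Klf4 and Klf6 and not at Klf13, with 93.4% of promoters holding it. GAGGAA, which contains GGAA and resembles the PU.1 site, and GATAA were in none of the 6 windows, against 23.3% and 22.6% of all promoters. All motifs were searched on both strands, and a match describes letters only.

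The gene spans in mm10 are chr8:72319062-72321654 for Klf2, chr5:64803521-64832901 for Klf3, chr4:55527137-55532475 for Klf4, chr13:5861489-5870393 for Klf6, chr1:64029448-64122345 for Klf7 and chr7:63886351-63938915 for Klf13. Part of Eps15l1 lies in the Klf2 window, Gm38457 overlaps the start of Klf3, and E030018B13Rik lies inside Klf13. A peak in a shared stretch cannot be assigned to one gene, and distances below are from the start next to the promoter shown, positive in the direction of transcription. Over the 12 ATAC libraries, the 6 windows held 100 merged open regions. Of these 78.0% overlapped a PU.1 region, 88.0% an H3K4me1 region, 72.0% both and 6.0% neither. Only merged ChIP regions listed in every UTX WT library of their assay were counted for this. Over all 79094 open regions the shares were 60.3%, 66.7%, 50.1% and 23.2%. The marker genes of progenitors had peaks in 8 of 8 cases in every ChIP library and in 6 to 8 of 8 in the ATAC libraries, where Mpo had a peak in 4 and Flt3 in 10 of the 12 libraries. H3K4me1 lists held 43706 to 54654 islands with 6.93 to 14.21 M reads inside them, the highest in UTX WT replicate 2, and PU.1 lists 137850 to 171535 islands with 20.35 to 27.78 M. ATAC lists held 24833 to 50927 peaks, and their read depth is unknown.

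In H3K4me1, the 6 windows divided by direction, but no window passed the test. Values are RPM, here the island reads of a window after each library's island reads were scaled to a total of 1 M. Klf2 had 460.1 and 488 in UTX KO libraries, against 307 and 316 in UTX WT libraries. Both UTX KO libraries were above both UTX WT libraries, with a log2 fold change of 0.54 ± 0.11 (SE, n = 2 each; edgeR adjusted p = 0.0556). At Klf13 the order was the opposite, with 572 and 602 in UTX KO libraries and 776 and 826 in UTX WT libraries, without overlap (log2 fold change -0.51 ± 0.10, edgeR adjusted p = 0.0536). Both lie just outside the threshold of 0.05, and both windows cut through a broad region at their edge, described below. DESeq2 called both, with adjusted p = 3.91e-08 for Klf2 and 1.92e-06 for Klf13, but it called far more windows than edgeR, 1887 risen and 2660 fallen of 18089. With edgeR 0 of 6 members were called in this comparison, where 3.81% of the 18089 windows tested were called (0.426% risen and 3.38% fallen). An unadjusted p under 0.05 was found for 2 members, and over all windows for 1737 higher and 2680 lower ones.

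The other members were nearer to their spread. Klf4 had 51.6 and 61.0 in UTX KO libraries, against 39.8 and 38.5 in UTX WT libraries, and Klf6 had 179 and 156 against 107 and 132. Neither gene's groups overlapped, yet the log2 fold changes of 0.46 ± 0.24 and 0.43 ± 0.18 had edgeR adjusted p-values of 0.289 and 0.220. Klf3, with 184 and 256 in UTX KO libraries and 242 and 316 in UTX WT libraries, and Klf7, with 345 and 214 against 226 and 236, overlapped between the groups. Their log2 fold changes were -0.41 ± 0.20 and 0.22 ± 0.24 (edgeR adjusted p = 0.274 and 0.638).

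The number of islands was 6 and 6 in UTX KO and 12 and 10 in UTX WT libraries at Klf2, 7 and 11 against 8 and 14 at Klf3, and 3 and 3 against 2 and 3 at Klf4. It was 4 and 5 in UTX KO and 5 and 6 in UTX WT libraries at Klf6, 11 and 7 against 7 and 9 at Klf7, and 9 and 9 against 9 and 11 at Klf13. Klf2 was thus the member whose island numbers did not overlap, with fewer islands in UTX KO libraries. These are raw counts, from whole lists of 44089 and 43706 islands in UTX KO and 51394 and 54654 in UTX WT libraries. The share of all windows whose island numbers do not overlap is not given here, so the Klf2 count has no background. Summed over the 6 windows there were 40.5 ± 0.707 islands in UTX KO and 48.0 ± 7.07 in UTX WT libraries (SD, n = 2 each), a sum given as a description with no test.

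Single islands show where in a locus the reads lay. The merged region over the Klf13 gene body, chr7:63887001-63937599, held an island among the strongest of every library, with at most 0.0586% of islands higher. It held 415 and 432 RPM in UTX KO libraries, against 444 and 402 in UTX WT libraries, which overlap. The Klf13 regions that were lower lay upstream. At chr7:63939401-63948599 the values were 15.8 and 19.2 in UTX KO and 32.6 and 41.1 in UTX WT libraries, and at chr7:63961001-63968999 they were 9.14 and 16.3 in UTX KO and 34.8 and 29.3 in UTX WT libraries. The last Klf13 region, merged over libraries, runs 31084 bp past the window's edge. A window value holds only those islands of a library that overlap the window. The Klf13 window values of both UTX KO libraries and UTX WT replicate 1 therefore leave out reads of that region, more of them in UTX KO libraries. The part of this edge in the Klf13 window difference was not tested.

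At Klf2, 4 of the 5 regions listed in all 4 libraries were higher in both UTX KO libraries, against 38.6% of such regions over the genome. The region at the start, chr8:72312401-72325799, was among the 4. The largest values lay in the 2 broad regions at the sides of the window. Of these the upstream one runs 10061 bp past the window's edge. Its values here are those of the whole region, while the window values hold only islands that overlap the window. The upstream one, chr8:72259001-72288799, had 158 and 139 RPM in UTX KO and 92.5 and 95.1 in UTX WT libraries, and the downstream one, chr8:72341601-72366399, inside Eps15l1, had 210.0 and 232 in UTX KO and 109 and 121 in UTX WT libraries. With the flank reduced to 10 kb, which leaves both out, the log2 fold change of Klf2 was -0.16. In the same locus the island at chr8:72327201-72331999 was the 1 region of 51 that was lost, meaning listed in every UTX WT and no UTX KO library, with 0 reads in both UTX KO libraries and 50 and 131 reads in UTX WT libraries. Over the genome 10.9% of 58663 regions were lost and 2.15% gained, and the members gained 0.

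The gene-body region of Klf6, chr13:5862401-5877599, had 105 and 95.3 RPM in UTX KO and 48.5 and 60.0 in UTX WT libraries. Of the 30 member regions listed in all 4 libraries, 10 were higher in both UTX KO libraries than in both UTX WT libraries and 8 were lower, against 38.6% and 19.5% of 26940 such regions. H3K4me1 islands reached the annotated start of Klf2 and Klf4 in all 4 libraries and of Klf7 in 3 of 4, and those of Klf3, Klf6 and Klf13 in 0 of 4. Marker genes of B cells, a type that lineage depletion should remove, had 68.6 to 132.8 kb of islands in UTX KO and 56.0 to 63.0 kb in UTX WT libraries, and those of megakaryocytes and erythroid cells had 39.4 to 54.0 kb (5 of 6 genes) in UTX KO and 61.8 to 88.0 kb (6 of 6) in UTX WT libraries. All 5 B cell genes had an island in every library. These lengths are not scaled, and all islands covered 179.52 and 226.18 Mb in UTX KO and 201.06 and 284.23 Mb in UTX WT libraries. The part of both marker lists in the values above was not tested.

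**Figure D1:**
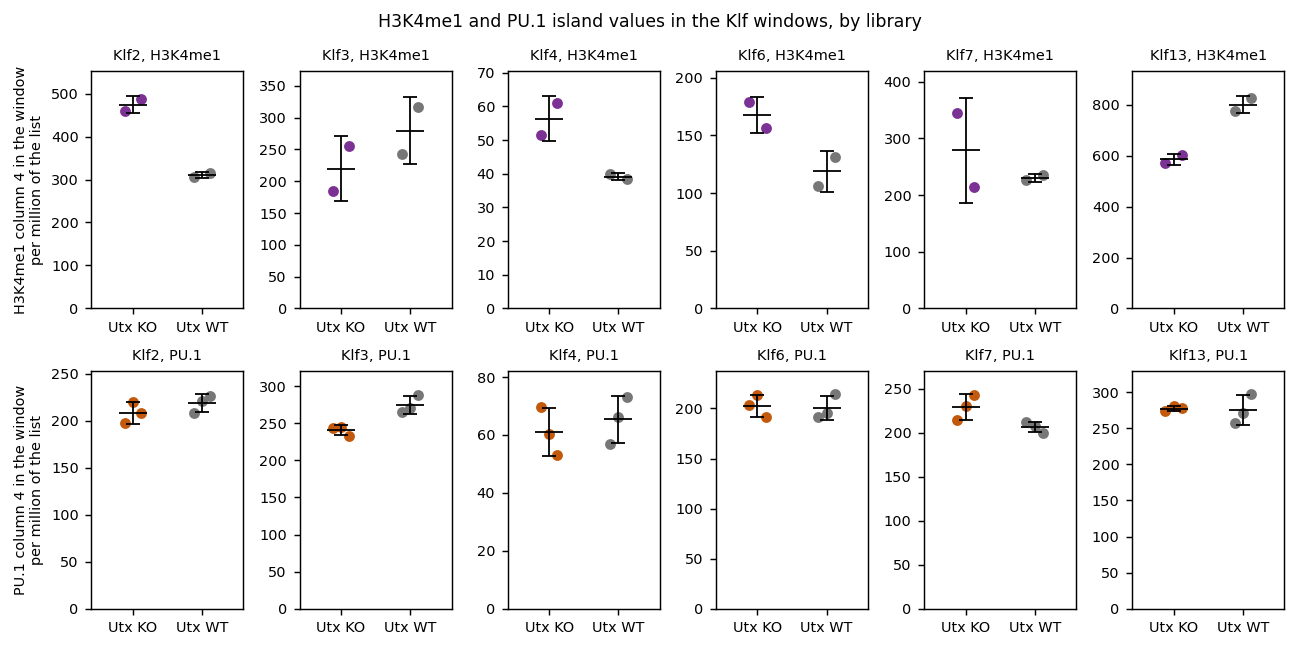
H3K4me1 (2 libraries a group) and PU.1 (3 libraries a group) at the 6 Krüppel-like factor windows, as RPM of island reads, UTX KO left of UTX WT. Points are libraries and bars mean ± SD. For H3K4me1, Klf2 stands at 460.1 and 488 in UTX KO above 307 and 316 in UTX WT, while PU.1 at Klf3 lies at 244, 245 and 233 in UTX KO below 265, 270 and 289 in UTX WT.

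In PU.1 occupancy, Klf3 was the member that passed the test, and the other 5 did not. The Klf3 window had 244, 245 and 233 RPM in UTX KO libraries, against 265, 270 and 289 in UTX WT libraries. All UTX KO libraries were below all UTX WT libraries, and PU.1 at Klf3 fell by 0.22 ± 0.043 on the log2 scale (SE, n = 3 each; edgeR adjusted p = 0.0043). The call held without any 1 library, with edgeR adjusted p from 0.00722 to 0.0202, but covered length tested by limma gave an adjusted p of 0.431. With 1 of 6 members called, the count stands against 32.2% of 19773 windows called, 14.5% risen and 17.7% fallen.

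The Klf3 difference was spread over the locus. Of its 18 regions listed in all 6 libraries, 10 were lower in every UTX KO library than in every UTX WT library and 0 were higher, against 22.8% lower and 18.5% higher among 98590 such regions. The merged Klf3 region with the highest mean RPM, in the gene body at chr5:64809001-64813999, had 34.9, 30.7 and 30.2 RPM in UTX KO libraries, against 35.1, 37.9 and 41.7 in UTX WT libraries. A site 38.8 kb upstream had 15.3, 14.9 and 13.7 in UTX KO and 18.8, 19.3 and 18.4 in UTX WT libraries.

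At Klf7 the direction was the opposite but did not pass. Its window had 214, 230.1 and 243 RPM in UTX KO libraries, against 212, 208 and 200.2 in UTX WT libraries, so that all UTX KO libraries were above all UTX WT libraries (log2 fold change 0.12 ± 0.053, edgeR adjusted p = 0.121). DESeq2 called Klf7 at an adjusted p of 0.0455, in a fit that called 4032 windows risen and 4378 fallen of 19772. With a 10 kb flank edgeR called it too (adjusted p = 0.0365), where 1973 windows rose and 2362 fell of 18282. The region at the start of Klf7, chr1:64117401-64122799, had 45.6, 49.6 and 51.7 in UTX KO and 44.6, 41.0 and 43.0 in UTX WT libraries. Both PU.1 regions that the members gained, listed in every UTX KO and no UTX WT library, were also at Klf7. The site at chr1:64047601-64048199, in the gene body, held 38, 48 and 37 reads in UTX KO libraries and the site at chr1:64139601-64140399, upstream of the gene, held 66, 64 and 78, with 0 in UTX WT libraries at both. An H3K4me1 island covered the upstream site in 1 library, UTX KO replicate 1, with 42 reads. The 2 gained regions are of 138 and 0 were lost, against 2.87% gained and 1.16% lost over 197216 regions.

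The remaining windows overlapped between the genotypes. Klf2 had 197, 221 and 208 RPM in UTX KO libraries, against 208, 222 and 227 in UTX WT libraries, and Klf4 had 69.8, 60.4 and 53.1 against 56.9, 66.0 and 73.2. Klf6 had 203, 213 and 191 in UTX KO and 191, 196 and 215 in UTX WT libraries, and Klf13 had 273, 281 and 277 against 257, 271 and 297. Their log2 fold changes lay between -0.13 and -0.02, with edgeR adjusted p from 0.146 to 0.833. Island numbers summed over the 6 windows were 125.7 ± 11 in UTX KO and 120.0 ± 2.0 in UTX WT libraries (SD, n = 3 each). Klf3 had 26, 21 and 24 islands in UTX KO and 19, 21 and 20 in UTX WT libraries, so its lower reads did not come with fewer islands, and Klf7 had 30, 27 and 29 against 28, 26 and 25. Marker genes of megakaryocytes and erythroid cells, 5 of 6 with an island in every PU.1 library and Hba-a1 at 0 in all 6, were covered over 10.8 to 14.6 kb in UTX KO and 9.39 to 10.6 kb in UTX WT libraries. Those of T cells had islands at 4 of 5 genes and 4.39 to 9.19 kb in UTX KO libraries, against 5 of 5 and 8.79 to 10.6 kb in UTX WT libraries. These marker lengths are not scaled, and the part of either list in the PU.1 results was not tested. Very strong PU.1 sites lay within 2 of these loci. The Klf13 gene-body site at chr7:63910201-63914999, 26.3 kb into the gene, held 1747, 1369 and 1501 reads in UTX KO and 1332, 1543 and 1710 reads in UTX WT libraries. These are sums over the merged region, and its strongest single island lay within the top 0.299% of each list. The Klf6 site at chr13:5887601-5890199, 27.4 kb downstream of the start, held 1682, 1273 and 1378 reads in UTX KO and 1287, 1550 and 1571 in UTX WT libraries, within the top 0.199%.

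Open chromatin at the Krüppel-like factor genes differed between the genotypes at 3 of the 6 windows. In cells with the empty vector the Klf7 and Klf13 windows fell in UTX KO and the Klf4 window rose. Values are the kilobases covered by peaks in a window, scaled so that every library has the same total covered length, and fold changes are on the log2(value + 0.5 kb) scale. The calls, 1 of 6 risen and 2 of 6 fallen by limma, stand against 6.92% of 16727 windows called, 2.68% risen and 4.24% fallen. In bulk samples a change in the share of cells of a type and a change within cells cannot be told apart.

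Klf7 covered 4.20 and 4.50 kb in UTX KO libraries, against 6.47 and 7.26 kb in UTX WT libraries. Both UTX KO libraries were below both UTX WT libraries, and coverage fell by 0.60 ± 0.083 on the log2 scale (SE, n = 2 each; limma adjusted p = 0.00447). The number of peaks in the window was 7 and 7 in UTX KO and 13 and 13 in UTX WT libraries. Peak numbers in this comparison are raw counts, from whole lists of 40477 and 41024 peaks in UTX KO and 50845 and 50927 in UTX WT libraries. Leaving out any 1 library kept the call, with adjusted p from 0.0024 to 0.0459, and without scaling the log2 fold change was -0.91 (adjusted p = 0.0107) while the median of all windows was -0.24. Counting only the top 50% of each list by width gave an adjusted p of 0.0583 and counting peaks gave 0.273.

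The peak at the Klf7 start was 1620 and 1640 bp wide in UTX KO and 1657 and 1640 bp in UTX WT libraries. Wider differences lay in the gene body. The width of a region in a library is the summed width of its peaks there. At chr1:64104427-64105753, 16.3 kb into the gene, peaks were 215 and 0 bp wide in UTX KO libraries and 815 and 1059 bp in UTX WT libraries. At chr1:64117882-64118973, 3.0 kb into the gene, they were 308 and 0 bp in UTX KO and 820 and 676 bp in UTX WT libraries. A further 3 regions, at 39.9, 36.6 and 35.2 kb from the start, were lost, each with 0 bp in both UTX KO libraries and 206 to 394 bp in UTX WT libraries. H3K4me1 reads of the broad region over those 3, chr1:64073801-64093399, overlapped between the genotypes.

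Klf13 covered 7.17 and 7.69 kb in UTX KO libraries, against 9.34 and 9.01 kb in UTX WT libraries, without overlap. Coverage fell by 0.29 ± 0.070 on the log2 scale (limma adjusted p = 0.0372), with 7 and 8 peaks in UTX KO and 13 and 12 in UTX WT libraries. The call was lost when any of the 4 empty-vector libraries was left out, with adjusted p from 0.10 to 0.249, and with the top 50% of each list (0.0609) or peak number (0.254), and it held without scaling (log2 fold change -0.60, adjusted p = 0.0269). The open region under the strong gene-body PU.1 site, chr7:63910824-63912588, was 591 and 636 bp wide in UTX KO libraries, against 1530 and 1666 bp in UTX WT libraries, although PU.1 reads there overlapped between the genotypes. The start region, chr7:63935806-63940733, was 3748 and 3771 bp wide in UTX KO and 3896 and 4406 bp in UTX WT libraries. Regions at 24.7, 19.3 and 8.6 kb into the gene and 2.7 kb upstream were lost, with 0 bp in UTX KO libraries and 209 to 471 bp in UTX WT libraries.

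**Figure D2:**
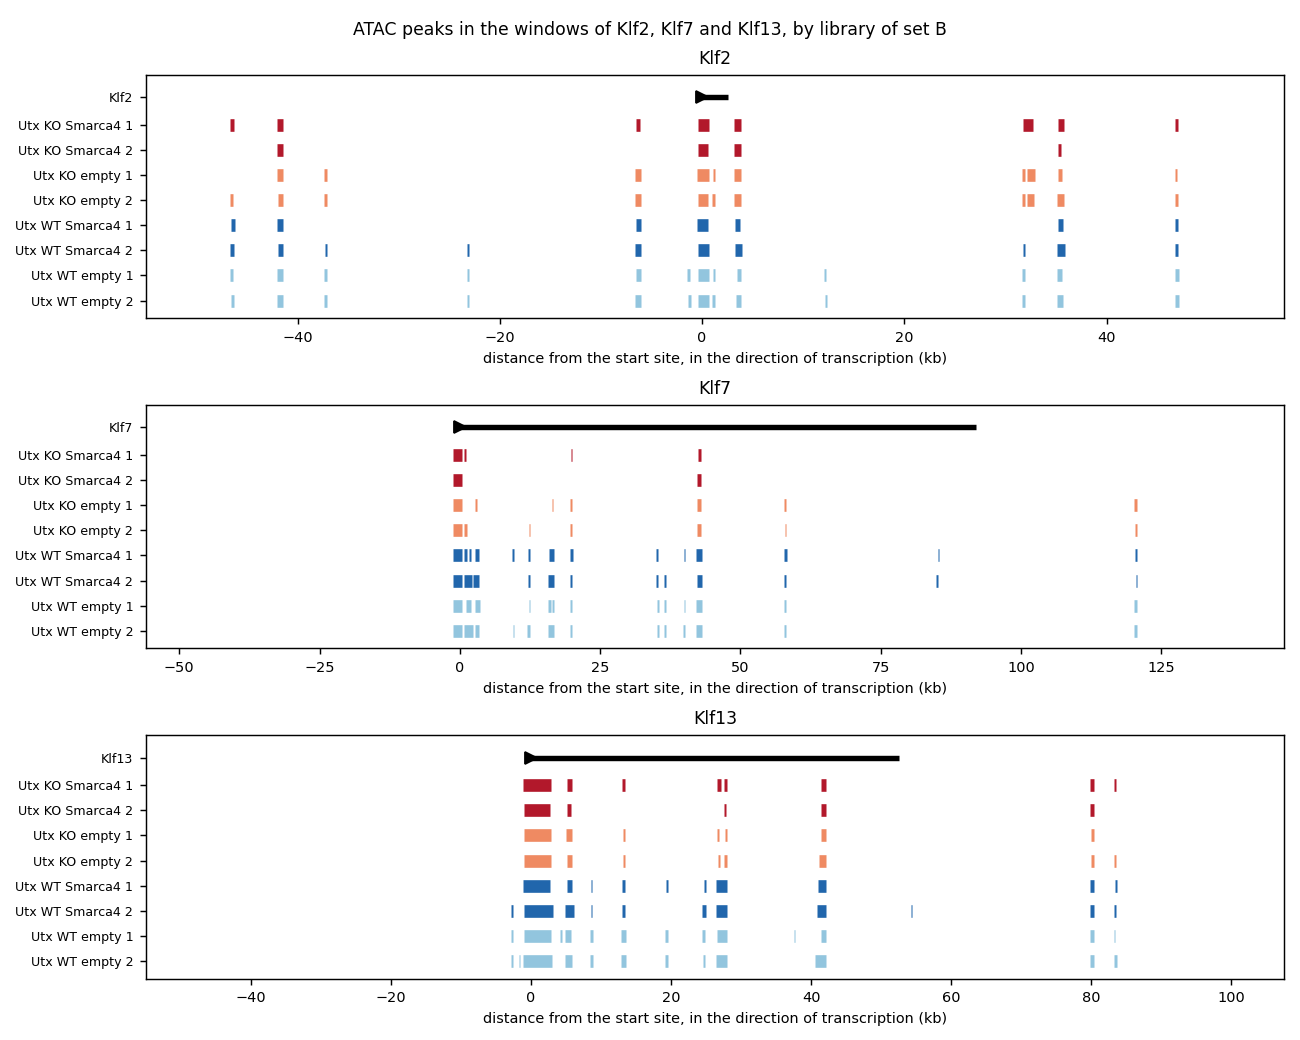
ATAC peaks at Klf2, Klf7 and Klf13 by distance from the start next to the promoter shown (kb, positive in the direction of transcription), 1 line for each of the 8 set B libraries, from UTX KO with the Smarca4 guide at the top to UTX WT with the empty vector at the bottom. The Klf7 gene body holds fewer peaks in UTX KO libraries, where 7 and 7 peaks in the empty-vector libraries compare with 13 and 13 in UTX WT.

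Klf4 was the member whose coverage rose, with 3.62 and 3.55 kb in UTX KO libraries, against 2.56 and 1.92 kb in UTX WT libraries. The log2 fold change was 0.59 ± 0.12 (limma adjusted p = 0.0185). The call rests on the scaling, since without it the log2 fold change was 0.31 (adjusted p = 0.133), and it was also lost with a 10 kb flank (0.0978) and without UTX WT replicate 2 (0.0922), UTX KO replicate 1 (0.116) or UTX KO replicate 2 (0.108). The gained Klf4 region, chr4:55489205-55489590, lay 43.1 kb downstream of the start and was 350 and 244 bp wide in UTX KO libraries and 0 bp in UTX WT libraries. The region around the start was 738 and 823 bp wide in UTX KO and 673 and 584 bp in UTX WT libraries.

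Klf2 covered 5.62 and 6.12 kb in UTX KO and 4.76 and 4.56 kb in UTX WT libraries, Klf3 4.99 and 5.00 kb against 4.68 and 4.74 kb, and Klf6 3.79 and 5.60 kb against 3.73 and 4.64 kb. Klf2 and Klf3 did not overlap between the groups, but none of the 3 passed, with log2 fold changes of 0.30 ± 0.15, 0.08 ± 0.074 and 0.13 ± 0.20 (limma adjusted p = 0.208, 0.515 and 0.686). Klf2 had 10 and 11 peaks in UTX KO and 13 and 13 in UTX WT libraries, Klf3 6 and 6 against 7 and 8, Klf4 5 and 5 against 4 and 3, and Klf6 5 and 9 against 6 and 10. Within Klf2 single regions differed both ways. The region at chr8:72350736-72352005, inside Eps15l1 and the broad downstream H3K4me1 region, was 1059 and 945 bp wide in UTX KO libraries, against 266 and 245 bp in UTX WT libraries. Regions 23.1 and 1.3 kb upstream and 12.2 kb downstream of the start were lost, with 0 bp in UTX KO libraries and 200 to 347 bp in UTX WT libraries.

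Over all members 10 of 61 regions were lost and 1 gained between UTX KO and UTX WT cells, against 11.3% and 1.92% of 58414 regions over the genome. Of the 33 member regions open in all 4 libraries, 6 were wider in both UTX KO libraries and 13 narrower, against 8.38% and 42.8%. Raw peak numbers summed over the 6 windows were 43.0 ± 4.24 in UTX KO and 57.5 ± 2.12 in UTX WT libraries (SD, n = 2 each), and the UTX KO lists were also shorter as a whole. Marker genes of megakaryocytes and erythroid cells, 4 to 5 of 6 with a peak in UTX KO and 5 of 6 in UTX WT libraries, had an unscaled summed coverage of 5.78 to 6.00 kb and 7.06 to 7.84 kb. Those of stroma and endothelium, 2 to 3 of 5 in UTX KO and 3 of 5 in UTX WT libraries, had 1.71 to 2.65 kb and 4.57 to 4.90 kb. Hba-a1, a defining erythroid gene, was listed at 0 in all 12 ATAC libraries. Unlike the window values, the marker lengths are not scaled. The whole lists covered 25.78 and 25.64 Mb in UTX KO and 30.49 and 34.29 Mb in UTX WT libraries with the empty vector. The part of list length in these marker differences, and of these differences in the results, was not tested.

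**Figure D3:**
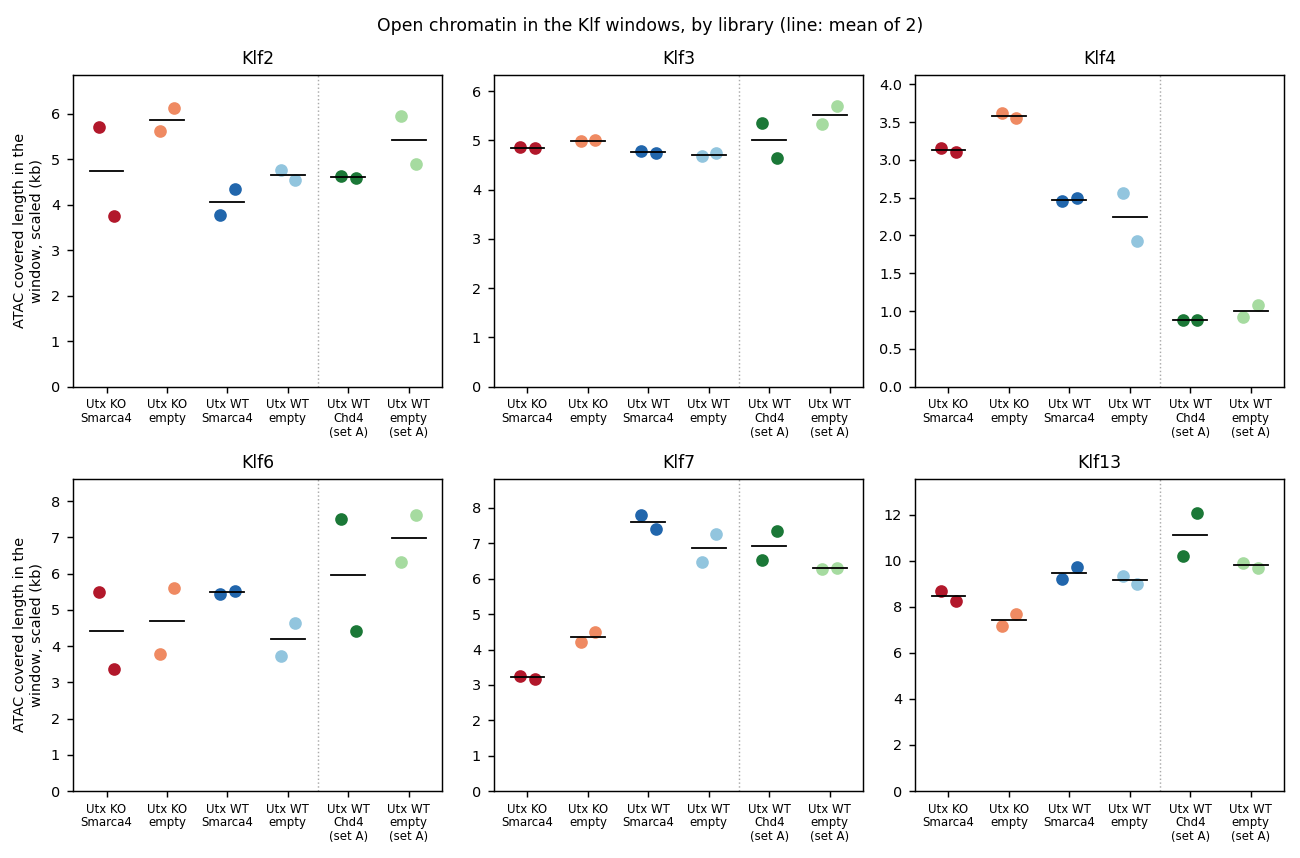
Scaled coverage by ATAC peaks (kb) of each of the 6 windows in the 12 libraries, in set B from UTX KO with the Smarca4 guide to UTX WT with the empty vector, and in set A the Chd4 guide left of the empty vector. Points are libraries and lines the mean of 2. Klf7 lies at 3.26 and 3.17 kb in UTX KO cells with the Smarca4 guide and at 7.79 and 7.40 kb in UTX WT cells with it.

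The Smarca4 guide moved no member window past the test in either genotype. In UTX KO cells, Klf7 covered 3.26 and 3.17 kb with the guide, against 4.20 and 4.50 kb with the empty vector, without overlap (log2 fold change -0.39 ± 0.083, SE, n = 2 each; limma adjusted p = 0.0975). In UTX WT cells it covered 7.79 and 7.40 kb with the guide, against 6.47 and 7.26 kb with the empty vector, again without overlap but in the other direction (0.14 ± 0.083, limma adjusted p = 0.558). The difference between the 2 effects was -0.52 ± 0.12 and did not pass (limma adjusted p = 0.454). By limma 0 members were called in UTX KO cells, where 0.143% of windows were called (0.0179% risen and 0.126% fallen). There 2 members had an unadjusted p under 0.05, as had 1652 higher and 1079 lower windows of 16727. In UTX WT cells 0 members were called among 0% of all windows, with 0 members under that unadjusted p, against 924 higher and 1003 lower windows. The interaction called 0% of windows, with 1 member under that unadjusted p, against 873 higher and 617 lower windows. No other tool was run on the covered lengths of ATAC peaks.

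The remaining members gave these values. Klf13 covered 8.71 and 8.24 kb with the guide and 7.17 and 7.69 kb with the empty vector in UTX KO cells (0.18 ± 0.070, limma adjusted p = 0.257), and 9.22 and 9.72 kb against 9.34 and 9.01 kb in UTX WT cells. Klf2 covered 5.72 and 3.75 kb with the guide and 5.62 and 6.12 kb with the empty vector in UTX KO cells. Without replicate 1 of the guide its log2 fold change of -0.31 became -0.58 with a limma adjusted p of 0.0153, so that 1 library decides it. Klf6 spread as widely, with 5.49 and 3.36 kb against 3.79 and 5.60 kb. In UTX WT cells Klf2 covered 3.78 and 4.34 kb with the guide and 4.76 and 4.56 kb with the empty vector, and Klf6 5.45 and 5.51 kb against 3.73 and 4.64 kb, with limma adjusted p of 0.665 and 0.529. Klf3 and Klf4 had log2 fold changes between -0.17 and 0.13 in either genotype.

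Single open regions were nonetheless absent from guide libraries. A region 1.1 kb inside the start of Klf2, chr8:72320003-72320384, was 0 bp in all 4 guide libraries of both genotypes, against 221 and 336 bp in UTX KO and 221 and 353 bp in UTX WT cells with the empty vector. The same region was also 0 bp in both set A libraries of UTX WT cells with the empty vector. In UTX WT cells the Klf2 regions 1.3 kb upstream and 12.2 kb downstream of the start were also lost, and 1 region was gained, at chr1:64035952-64036499 in Klf7 (282 and 391 bp with the guide and 0 bp with the empty vector). In UTX KO cells the lost regions were also at chr8:72281676-72281978 upstream of Klf2, at both distal Klf4 sites, 43.7 and 43.1 kb from the start, and at 58.0 and 120.5 kb from the start of Klf7. Losses came to 6 of 44 regions in UTX KO cells, against 8.45% over the genome, and to 3 of 65 in UTX WT cells, against 5.97%. Gains were 0 in UTX KO and 1 in UTX WT cells, against 0.268% and 0.865%. Of the 20 member regions open in all 4 UTX KO libraries, 3 were wider in both guide libraries and 4 narrower, against 5.77% and 35.4% over the genome, and of 39 in UTX WT cells 7 were wider and 4 narrower, against 12.7% and 23.7%. Summed peak numbers were 28 ± 9.90 with the guide and 43.0 ± 4.24 with the empty vector in UTX KO cells, and 50.5 ± 2.12 against 57.5 ± 2.12 in UTX WT cells (SD, n = 2 each). The UTX KO library of replicate 2 with the guide had the fewest peaks of set B, 29930.

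**Figure D4:**
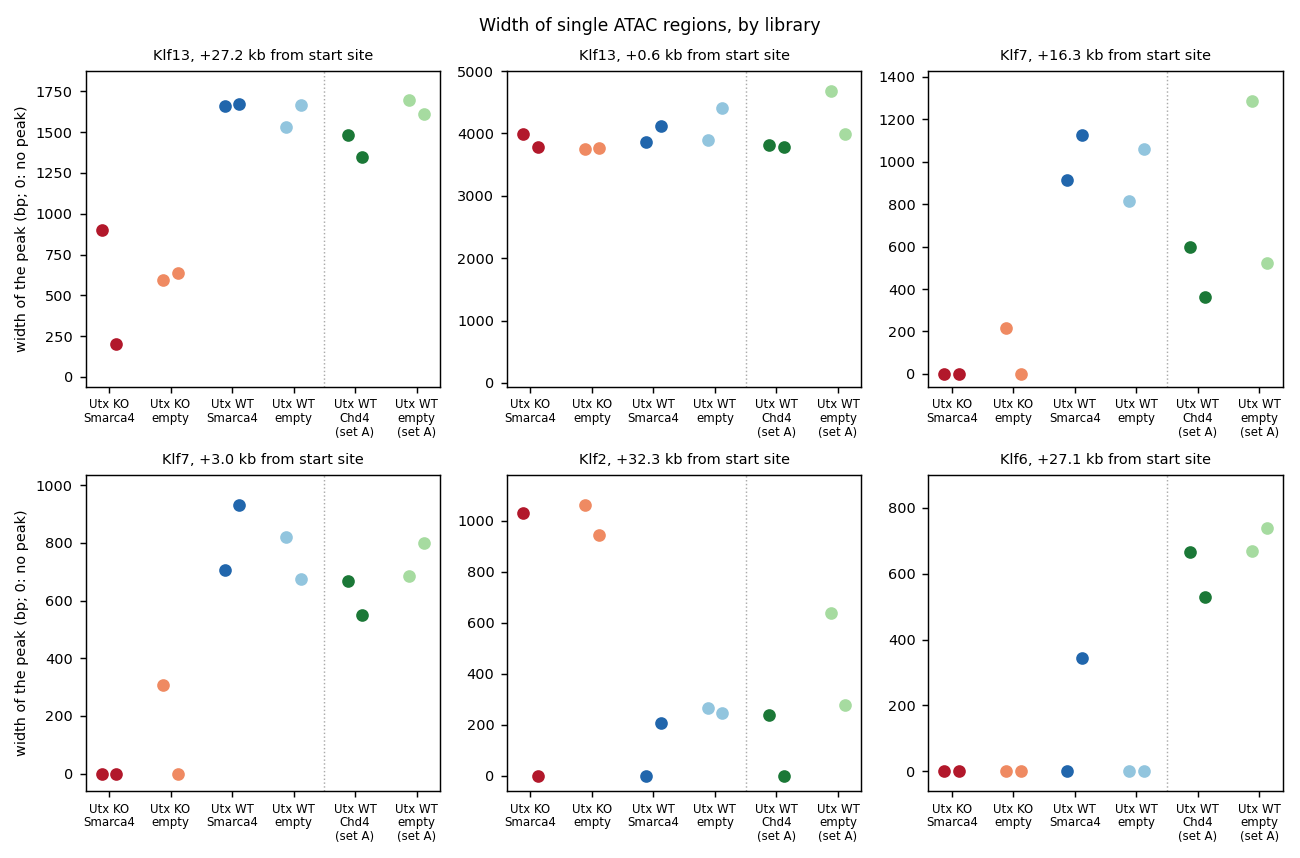
Peak width (bp) in each of the 12 ATAC libraries at 6 open regions of Klf13, Klf7, Klf2 and Klf6, named by distance from the gene's start, guide groups left of their empty-vector groups. The Klf13 region at 27.2 kb is 591 and 636 bp wide in UTX KO and 1530 and 1666 bp in UTX WT cells with the empty vector, while the Klf13 start region is 3748 and 3771 bp against 3896 and 4406 bp.

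The Chd4 guide, set against the empty vector in UTX WT cells, gave fewer and narrower peaks at the members, as over the whole genome, and no window passed the test after scaling. Klf13 covered 10.2 and 12.1 kb with the guide and 9.89 and 9.71 kb with the empty vector, and Klf7 6.52 and 7.34 kb against 6.28 and 6.31 kb, both without overlap. Klf2 covered 4.64 and 4.59 kb with the guide, against 5.94 and 4.90 kb, and Klf4 0.877 and 0.879 kb against 0.920 and 1.08 kb, likewise without overlap and lower. Klf3, at 5.35 and 4.65 kb with the guide and 5.34 and 5.71 kb with the empty vector, and Klf6, at 7.51 and 4.43 kb against 6.32 and 7.62 kb, overlapped. Log2 fold changes lay between -0.24 and 0.17 with limma adjusted p from 0.414 to 0.784. By limma 0 members were called, where 0% of 15969 windows rose and 0.207% fell. An unadjusted p under 0.05 was found for 0 members, and over all windows for 1864 higher and 1129 lower ones.

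The result depends on the scaling. The Chd4 guide libraries list 34429 and 24833 peaks and the empty-vector libraries 48687 and 41480. Without scaling the median of all windows was -0.57, and limma called 1 window risen and 3468 fallen of 15991. Among the windows that limma called fallen were Klf2 (-0.90, adjusted p = 0.0273), Klf3 (-0.83, 0.0419) and Klf6 (-0.95, 0.023). Klf6 also depends on 1 library, with -0.60 and an adjusted p of 0.000123 without replicate 1 of the guide. Of the 33 member regions open in all 4 libraries, 26 were narrower in both guide libraries and 0 wider, against 70.7% and 0.486% over the genome. Summed peak numbers were 43.0 ± 14.1 with the guide and 69.0 ± 9.90 with the empty vector (SD, n = 2 each). Lost regions came to 10 of 81, against 13.7%, and gained ones to 0, against 0.0963%. Among the lost regions was the one 1.5 kb inside Klf4, chr4:55530128-55531751, at 0 bp with the guide and 412 and 410 bp with the empty vector. Others lay at Klf7, at 44.5, 39.9, 35.2 and 10.5 kb into the gene, at Klf13, 22.4 kb into the gene and 13.4 kb upstream, at Klf3, 7.6 kb upstream and 30.8 kb from the start, and at Klf2, 23.1 kb upstream.

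**Figure D5:**
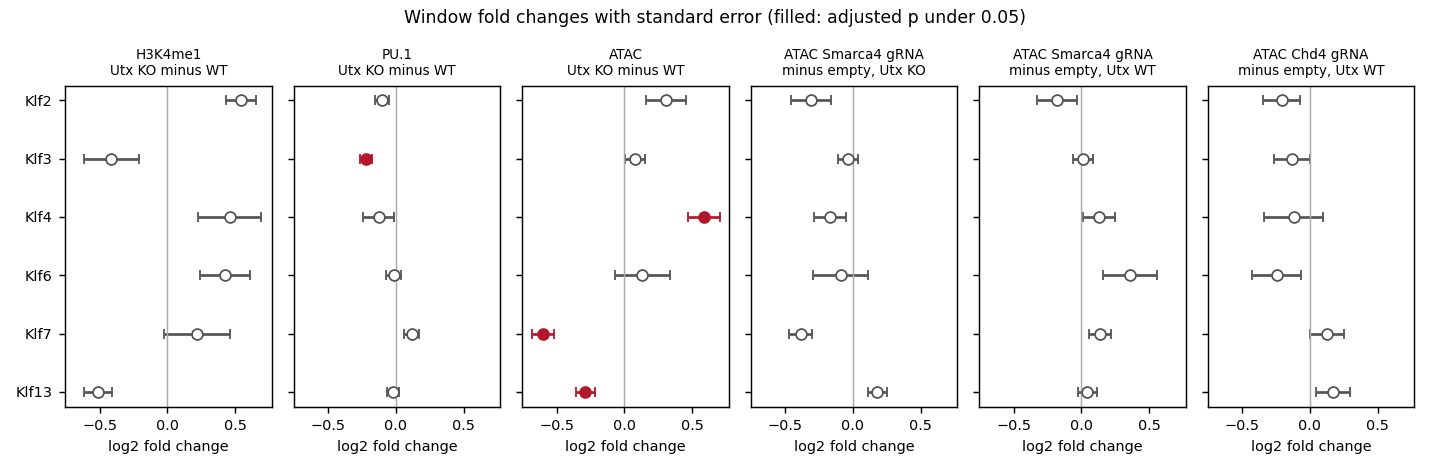
Log2 fold change ± SE of each of the 6 windows in 6 comparisons, KO minus WT or guide minus empty vector, from edgeR for H3K4me1 and PU.1 and limma for ATAC. Filled red points have an adjusted p under 0.05, which are Klf3 for PU.1 (-0.22) and Klf4 (0.59), Klf7 (-0.60) and Klf13 (-0.29) for ATAC.

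The other 20 Klf and Sp genes give the family's background. For PU.1, 4 rose, 1 fell and 15 were not called in UTX KO libraries. Klf17 had 30.6, 31.9 and 33.6 RPM in UTX KO libraries, against 10.9, 9.79 and 9.26 in UTX WT libraries (log2 fold change 1.65 ± 0.13, edgeR adjusted p = 0.000169). Klf5, a factor of epithelial and myeloid cells, had 51.7, 57.9 and 69.4 in UTX KO and 34.9, 39.6 and 31.8 in UTX WT libraries (0.72 ± 0.12, edgeR adjusted p = 0.00254). Klf11 (0.50 ± 0.081) and Klf9 (0.17 ± 0.050) also rose, and Klf10 fell by 0.19 ± 0.046 on the log2 scale. None of the 3 overlapped between the groups. Klf9 lost its call when single libraries were left out, with an adjusted p of up to 0.0977.

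For H3K4me1 0 of these 20 were called by edgeR and 3 had an unadjusted p under 0.05, with Sp2 (-0.45, adjusted p = 0.107) and Sp4 (-0.51, 0.157) the nearest, and DESeq2 called both. For ATAC between UTX KO and UTX WT cells, 18 were tested and 2 rose. Sp1, a broadly expressed factor, covered 7.64 and 7.72 kb in UTX KO and 6.03 and 6.08 kb in UTX WT libraries (0.32 ± 0.072, limma adjusted p = 0.0279), and Sp7, a bone factor, 7.31 and 6.70 kb against 5.40 and 5.52 kb (0.33 ± 0.074, limma adjusted p = 0.0268). Neither held without scaling, with log2 fold changes of 0.01 and 0.02. The Smarca4 guide called 0 of 18 by limma in UTX KO cells, where 4 had an unadjusted p under 0.05 and Sp5 was nearest (-1.26 ± 0.29, adjusted p = 0.0993) ahead of Sp6 (0.23, 0.270), and 0 of 18 in UTX WT cells, where 2 did, Sp1 (0.18, 0.379) and Klf15 (-0.28, 0.386). The interaction called 0 by limma with 3 unadjusted, Sp6 (0.38) and Sp2 (0.31) first, both at an adjusted p of 0.498. For Chd4 0 of 14 were called by limma and 1 was unadjusted, with Klf11 (0.28, adjusted p = 0.262) and Klf16 (0.27, 0.313) nearest. The 6 members went both ways in every comparison, so that their median says little. It was 0.323 for H3K4me1, -0.061 for PU.1, and for ATAC 0.105 between UTX KO and UTX WT, -0.129 and 0.086 for the Smarca4 guide in UTX KO and UTX WT cells, -0.213 for the interaction and -0.126 for Chd4. In the same order the other family genes had -0.142, -0.054, 0.086, 0.1, -0.021, 0.074 and 0.169, and all windows had 0.01, 0.005, 0.048, 0.052, 0.006, 0.043 and 0.086.

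Some windows elsewhere in the genome followed the members' coverage across the 12 ATAC libraries, centred within each set, among 15649 windows compared. Klf7 was most like Bcar3 (Pearson r = 0.970), Ston2 (0.960) and Susd3 (0.959), and Klf13 like Cfi (0.927), Irgc1 (0.926) and Actr2 (0.926). Klf4 was most like Sall3 (0.953), Tmem45a2 (0.949) and Dennd11 (0.904). For Klf2 these were Zc3h3 (0.945), Spry1 (0.909) and Rps6kl1 (0.887), for Klf3 Dync1li2 (0.962), Syne2 (0.945) and Cdv3 (0.940), and for Klf6 Galc (0.973), Gng2 (0.914) and Gpr65 (0.911). These points share libraries and their scaling, and the genes were picked as the highest, so the values describe only.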

How the data were processed

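The 22 peak lists of 24 samples were used, and the 2 input libraries are not used here. The submitters' processing notes name mm10 and the tools SICER, MACS2, Bowtie2 and Bowtie, of which set A has MACS2 and Bowtie alone. They give no version and no role. The deposited ChIP lists give islands on a 200 bp grid with a whole-number count, taken as the island's read count, a role that no source states. The deposited ATAC lists give start and end coordinates only. Peaks were deposited per library.

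Peaks overlapping a gene window were summed whole, so neighbouring windows share peaks. ChIP sums were tested with edgeR 4.0.16 (quasi-likelihood, TMM), over all windows that passed its filter for low counts (filterByExpr). ATAC covered length was tested with limma 3.58.1 (trend), over all windows with a mean of at least 0.5 kb covered. Both ran in R 4.3.3, with Benjamini-Hochberg adjustment and a threshold of 0.05. DESeq2 1.42.0 was an alternative. Set B was fitted as 4 groups in 1 fit, set A alone. Regions were merged within each assay. Both scripts were tested on simulated data with 200 planted windows. Reads in islands are not library depth, and intervals of their counts would cover counting error only.

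Named genes are the 6 members in every comparison, the other family genes called (or the 2 with the smallest p), every region lost or gained and the strongest region, and 3 windows per member with the most similar coverage. Marker and Klf or Sp lists, like the members, were chosen with earlier results of these data known. The planned permutation test of sums over the members is not reported. Replicates sharing a number were not treated as pairs.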

Additional observations from a re-analysis of the deposited data

Results flagged for a closer look

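At 2 member windows every Smarca4 guide library lay on one side of its empty-vector libraries in UTX KO cells and on the other side in UTX WT cells. The share of all windows that meet this rule was not counted, so the number has no background to stand against. With 2 libraries in each group, such a separation can arise from the spread between libraries alone. At Klf7 the effect of the guide in UTX KO cells minus that in UTX WT cells was -0.52 ± 0.12 on the log2(kb + 0.5) scale (limma interaction, adjusted p = 0.454). Over its alternatives that difference stayed negative, from -1.10 by peak number to -0.18 in the top 50% of each list, and the adjusted p ranged from 0.12 to 0.999.

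At Klf3 the same difference was -0.05, from scaled coverage of 4.86 and 4.84 kb with the guide and 4.99 and 5.00 kb with the empty vector in UTX KO cells, and of 4.77 and 4.75 kb against 4.68 and 4.74 kb in UTX WT cells (limma interaction, adjusted p = 0.910). The Klf3 groups in UTX WT cells were barely apart, with the lower guide library at 4.75 kb and the higher empty-vector library at 4.74 kb. Neither the Klf7 nor the Klf3 difference passed the threshold.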

How the results depend on the processing

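With the number of member windows called as the measure, H3K4me1 went to 2 with DESeq2 or with no filter (both Klf2 and Klf13), and PU.1 went to 2 with DESeq2 or a 10 kb flank (Klf7 joined) and to 0 when covered length was tested by limma, scaled or not. ATAC between UTX KO and UTX WT went to 0 with the top 50% of each list or with peak number, and Chd4 went to 3 without scaling. For ChIP, covered length without scaling was chosen after seeing the data. Regions lost went to 5 (top 50% of each list) and 4 (50% of the region covered) for H3K4me1, and in the top 50% to 1 for PU.1, 6 for ATAC UTX KO, 2 for Smarca4 in UTX KO, 1 for Smarca4 in UTX WT and 5 for Chd4. Regions gained went to 4 for PU.1 and 2 for ATAC UTX KO with 50% covered, to 2 for ATAC UTX KO when merged within the comparison, and to 0 for Smarca4 in UTX WT in the top 50%.

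Leaving out 1 library, where an arm of 1 sample is assumed to vary like the other groups, gave 0 to 1 windows called for H3K4me1, 1 to 1 for PU.1, 1 to 3 for ATAC UTX KO, 0 to 1 for Smarca4 in UTX KO, 0 to 0 for Smarca4 in UTX WT and for the interaction, and 0 to 1 for Chd4. Regions lost ranged over 2 to 8 (H3K4me1), 0 to 3 (PU.1), 12 to 15 (ATAC UTX KO), 6 to 15 (Smarca4 in UTX KO), 5 to 9 (Smarca4 in UTX WT) and 10 to 26 (Chd4), and regions gained over 0 to 3, 2 to 8, 1 to 2, 0 to 0, 1 to 3 and 0 to 2 in the same order. Fewer libraries must share a region in these counts.

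Over all alternatives 545 of the member values kept direction and side of the threshold, 12 passed it anew, 17 lost it and 38 changed sign. A further 3 values of other family genes, Klf11, Klf16 and Sp2, also changed sign. All the values that changed sign belong to windows that were not called, and the cause was not tested. Without scaling these were Klf3 (-0.23) and Klf6 (-0.17) for ATAC UTX KO, Klf13 (-0.058) for Smarca4 in UTX KO, Klf3 (-0.096) and Klf13 (-0.072) for Smarca4 in UTX WT, Klf7 (-0.59), Klf13 (-0.56), Klf11 (-0.43) and Klf16 (-0.46) for Chd4, and, as covered length, Klf6 (-0.042) and Klf7 (-0.17) for H3K4me1 and Klf6 (0.028) for PU.1. With a 10 kb flank these were Klf2 (-0.16) for H3K4me1, Klf6 (0.078) for PU.1, Klf3 (0.024), Klf4 (0.079) and Klf6 (0.040) for Smarca4 in UTX KO, Klf2 (0.060) for the interaction, and Klf2 (0.44) and Klf3 (0.024) for Chd4. In the top 50% they were Klf6 (0.016) for PU.1, Klf3 (0.11) and Klf6 (0.21) for Smarca4 in UTX KO, Klf3 (0.025) and Sp2 (-0.072) for the interaction, and Klf4 (0.43) for Chd4. PU.1 by total library size gave Klf6 0.015 and Klf13 0.011, and by scaled covered length Klf6 0.047, and peak number gave Klf13 -0.042 for Smarca4 in UTX WT. Without 1 library, values that changed sign ranged over -0.20 to 0.55 (Klf7, H3K4me1), -0.055 to 0.033 (Klf6, PU.1), -0.060 to 0.022 (Klf13, PU.1), -0.12 to 0.39 (Klf6, ATAC UTX KO), -0.41 to 0.23 (Klf6, Smarca4 in UTX KO), -0.039 to 0.30 (Klf4, Smarca4 in UTX WT), -0.40 to 0.15 (Klf2, interaction) and -0.60 to 0.11 (Klf6, Chd4).

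Samples of the same replicate number correlated in their deviations at -0.115 to 0.198, and the labels tie the numbers to no animal, so they share only a number. With the replicate block the members called were 0 for H3K4me1, 1 for PU.1, 3 for ATAC UTX KO and 0 in the other comparisons, while over all windows Smarca4 in UTX KO cells went to 0 called, against 24, and Chd4 to 8 risen and 127 fallen, against 0 and 33. For PU.1 not every sample correlated best with its own number. H3K4me1 windows called by DESeq2 were 1887 risen and 2660 fallen, against 77 and 612 by edgeR. Without scaling ATAC UTX KO gave 47 risen and 2573 fallen, against 448 and 710. ATAC lists carry no depth, so a region listed at 0 may be open below the authors' threshold.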

Other observations

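The 2 ATAC sets both hold UTX WT cells with an empty vector, but they share no scaling. The widths below are given side by side with no test. The Klf6 region under its strongest PU.1 site, chr13:5888264-5889003, was 668 and 740 bp wide in set A with the empty vector and 0 bp in both such libraries of set B. The region 5.8 kb upstream of Klf7, chr1:64126731-64127679, was 777 and 939 bp in set A and 0 bp in set B, and the Klf2 region chr8:72359979-72360523, in Eps15l1, was 514 and 542 bp in set A and 0 bp in set B. The Klf4 region chr4:55530128-55531751 was 412 and 410 bp in set A and 1458 and 1490 bp in set B.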
